A study of Mus musculus with 11 samples.

Results

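The 10 genes described here encode enzymes and partners that write or remove 2 repressive chromatin marks. Ezh1, Ezh2, Eed and Suz12 encode the core of Polycomb repressive complex 2 (PRC2), Dnmt1, Dnmt3a and Dnmt3b are DNA methyltransferases, Uhrf1 recruits Dnmt1 to newly replicated DNA, and Tet1 and Tet2 oxidise methylcytosine. Every probe set whose annotation named only 1 of these genes was taken, which gave 31 of the 45101 probe sets on the Affymetrix Mouse430_2 array. They were taken for their function and not by a measured value, though the genes were chosen with earlier results of these data known.

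Cells carrying green fluorescent protein (GFP) had been sorted from muscle of Pax3GFP/+ mice on a C57BL/6J background, in which 1 Pax3 allele makes GFP, so that all 3 ages share the loss of that Pax3 copy. Satellite cells, the stem cells of muscle fibres, are the population the labels name. They came from trunk muscles at postnatal day 1 (P1, 4 arrays) and day 12 (P12, 4 arrays), where the labels call them proliferating, and from abdominal, pectoral and intercostal muscles at day 28 (P28, 3 arrays). The stated aim was to span proliferating and quiescent cells. The gate was GFP signal after exclusion of dead cells, and any GFP+ cell type could enter it. Arrays of 1 age are labelled as biological replicates, with no number of animals behind each, so the p-values measure the spread between arrays.

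Between P28 and the earlier ages, age cannot be told apart from the muscles taken, nor from the internal sample names: the P28 names carry another suffix than those of P1 and P12, and they begin with the code used for P1 although the titles and stated ages give P28. Array medians ran from 5.50 to 5.58 on the log2 scale of the deposited values, and control probe sets for a bacterial transcript absent from mouse read 3.36 to 3.64, which marks the background. Control probe sets at the 3' end of Gapdh exceeded those at its 5' end by 2.59 to 3.05 on replicates 1 and 2 of P1 and P12, 1.32 to 1.69 on their replicates 3 and 4, and 0.79 to 0.99 at P28. Pax7, the defining transcription factor of satellite cells, stood at a mean of 10.75, 10.78 and 10.72 at P1, P12 and P28. Xist, the non-coding RNA of the inactive X chromosome, ranged from 5.82 to 11.29 among the P1 arrays and from 10.59 to 11.81 at the later ages, and it differed by 0.11 between P12 and P28 (adjusted p = 0.95, limma). The labels do not give sex, and its part in the comparisons with P1 was not tested.

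As background, PRC2 places methyl groups on a lysine of histone H3. Ezh2 and Ezh1 are alternative catalytic subunits: Ezh2 is typical of dividing cells, while Ezh1 is the form that persists in many resting and differentiated cells. Eed reads the mark and stimulates the enzyme, and Suz12 holds the complex together. Dnmt1 with Uhrf1 copies DNA methylation to the daughter strand during replication, Dnmt3a and Dnmt3b set methylation at new sites, and the Tet enzymes start its removal. In muscle, Ezh2 is known for holding back differentiation genes in proliferating satellite cells and myoblasts.

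RefSeq gave 15 promoter windows of 300 bases (250 before and 50 after an annotated transcription start, GRCm38.p6) for the 10 genes. They were searched on both strands for the letters TTTCCCGC, TTTGGCGC and TTTCGCGC, which E2F factors, the regulators of S phase genes, can bind. The letters were found in 4 windows of 4 genes, Ezh2, Suz12, Dnmt1 and Uhrf1, and they occur in 606 of all 32851 windows (1.84%), or in 573 of 27025 genes (2.12%). Each of the searched letters contains CpG, a C followed by a G. These 4 windows hold 31, 41, 33 and 33 CpG, where all windows have a median of 7 and an upper quartile of 20. The share among windows of like CpG content was not computed, so the percentages are an unlike background. The 4 windows are shown because they hold the letters, and Ezh1 is shown beside them as the paralog of Ezh2. From P12 to P28, all 4 genes with the letters had a probe set that fell. So had Eed, Dnmt3a, Dnmt3b and, in a dim probe set, Ezh1, which hold none. Tet1 and Tet2 hold none and had no call. A part of the letters in the falls was not tested. Matches are in capitals, each sequence reads 5' to 3' along its gene, and GCGCGAAA in Dnmt1 is TTTCGCGC on the opposite strand.
Ezh2 promoter: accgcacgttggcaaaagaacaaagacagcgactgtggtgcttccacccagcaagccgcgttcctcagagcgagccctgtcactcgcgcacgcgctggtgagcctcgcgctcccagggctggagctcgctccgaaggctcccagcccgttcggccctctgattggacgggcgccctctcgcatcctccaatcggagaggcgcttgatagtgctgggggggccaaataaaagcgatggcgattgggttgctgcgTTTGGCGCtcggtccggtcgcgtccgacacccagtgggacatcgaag
Suz12 promoter: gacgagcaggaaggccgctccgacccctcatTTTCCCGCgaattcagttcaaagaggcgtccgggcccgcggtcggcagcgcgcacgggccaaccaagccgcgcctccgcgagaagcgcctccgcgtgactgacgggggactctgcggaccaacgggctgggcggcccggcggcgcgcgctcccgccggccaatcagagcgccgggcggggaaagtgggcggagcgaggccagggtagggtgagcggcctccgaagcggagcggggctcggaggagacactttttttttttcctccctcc
Dnmt1 promoter: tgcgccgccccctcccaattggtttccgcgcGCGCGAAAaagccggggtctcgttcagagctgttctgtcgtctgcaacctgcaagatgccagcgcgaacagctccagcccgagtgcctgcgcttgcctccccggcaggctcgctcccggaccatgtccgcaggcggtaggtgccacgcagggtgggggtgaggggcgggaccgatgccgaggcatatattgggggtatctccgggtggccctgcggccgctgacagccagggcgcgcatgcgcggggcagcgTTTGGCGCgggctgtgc
Uhrf1 promoter: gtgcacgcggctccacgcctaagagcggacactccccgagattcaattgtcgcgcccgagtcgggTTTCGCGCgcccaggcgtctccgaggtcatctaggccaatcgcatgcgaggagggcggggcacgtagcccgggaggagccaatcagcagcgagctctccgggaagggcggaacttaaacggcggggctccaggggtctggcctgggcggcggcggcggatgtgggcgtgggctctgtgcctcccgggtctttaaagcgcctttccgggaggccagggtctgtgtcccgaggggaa
Ezh1 promoter: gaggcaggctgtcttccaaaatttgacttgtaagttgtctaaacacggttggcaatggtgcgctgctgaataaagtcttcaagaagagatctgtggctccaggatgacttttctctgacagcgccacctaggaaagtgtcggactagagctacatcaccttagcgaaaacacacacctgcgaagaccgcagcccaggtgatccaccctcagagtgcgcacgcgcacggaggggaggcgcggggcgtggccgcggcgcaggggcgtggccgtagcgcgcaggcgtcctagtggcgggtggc
The Ezh2 window lies at chr6:47594981-47595280 on the minus strand, with its match starting 3 bases after the start site. The Suz12 window is chr11:79992856-79993155 on the plus strand, with the match 219 bases before the start. Dnmt1 (chr9:20952574-20952873, minus strand) was the only one of the 15 windows with 2 matches, 219 bases before and 33 bases after the start. Uhrf1 (chr17:56304063-56304362, plus strand) holds its match 185 bases before the start, and Ezh1 (chr11:101226414-101226713, minus strand) holds none of these letters. The windows of Eed, Dnmt3a, Dnmt3b, Tet1 and Tet2 held none of them either. TTTGAA or TTCGAA, the core letters of the cell cycle homology region, was found in 4 of the 10 genes, where 21.7% of all genes with a window hold it. A match describes letters in these windows and shows no binding.

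Between P12 and P28, 15 of the 31 probe sets fell, covering 8 of the 10 genes, and 2 rose, both of Ezh1, which also had a dim probe set among the falls. That is 48.4% of the probe sets lower and 6.45% higher, where 15.9% of all 45037 probe sets tested were lower and 13.5% higher. A gene is counted here if any of its probe sets passed. With only the brightest probe set per gene fitted, 7 of the 10 genes fell and 1 rose. In that fit 5716 of all 18193 genes were called in either direction. Tet1 and Tet2 had no probe set past the test. From P1 to P12, 1 probe set fell, of Dnmt3a, and 0 rose by limma's moderated test, where 3.25% of all probe sets were higher and 1.59% lower; at an unadjusted p under 0.05, 8 were higher and 2 lower. The split of all probe sets called in that step, 1464 higher and 717 lower, was 1065 and 990 after quantile normalization, and 289 and 667 on values scaled to the myogenic factors Pax7, Pax3, Myf5 and Myod1. The whole P1 to P28 interval gave 11 falls in 5 genes and 1 rise, of Ezh1, against 17.4% lower and 17.6% higher overall (7836 and 7917 probe sets, or 8845 and 4276 with the myogenic scaling). With 1 probe set per gene, 5 of the 10 genes fell and 0 rose, and 6656 of the 18193 genes were called in either direction. A probe set was called at an adjusted p under 0.05 (limma, Benjamini-Hochberg over all probe sets tested). The moderated F test over the 3 ages called 16 of the 31 probe sets, in 7 genes, and 36.3% of all. The median change of the 31 probe sets was 0.19 from P1 to P12, where that of all probe sets was 0.01, and -0.39 from P12 to P28, where that of all was -0.05.

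In these mixed RNA samples, fewer cells of a type and less RNA per cell cannot be told apart. Values below are log2 expression values, so a difference of 1 is a doubling, and they are compared between ages within a probe set, not between genes. Each gene is led by its brightest probe set over all arrays.

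**Figure D1:**
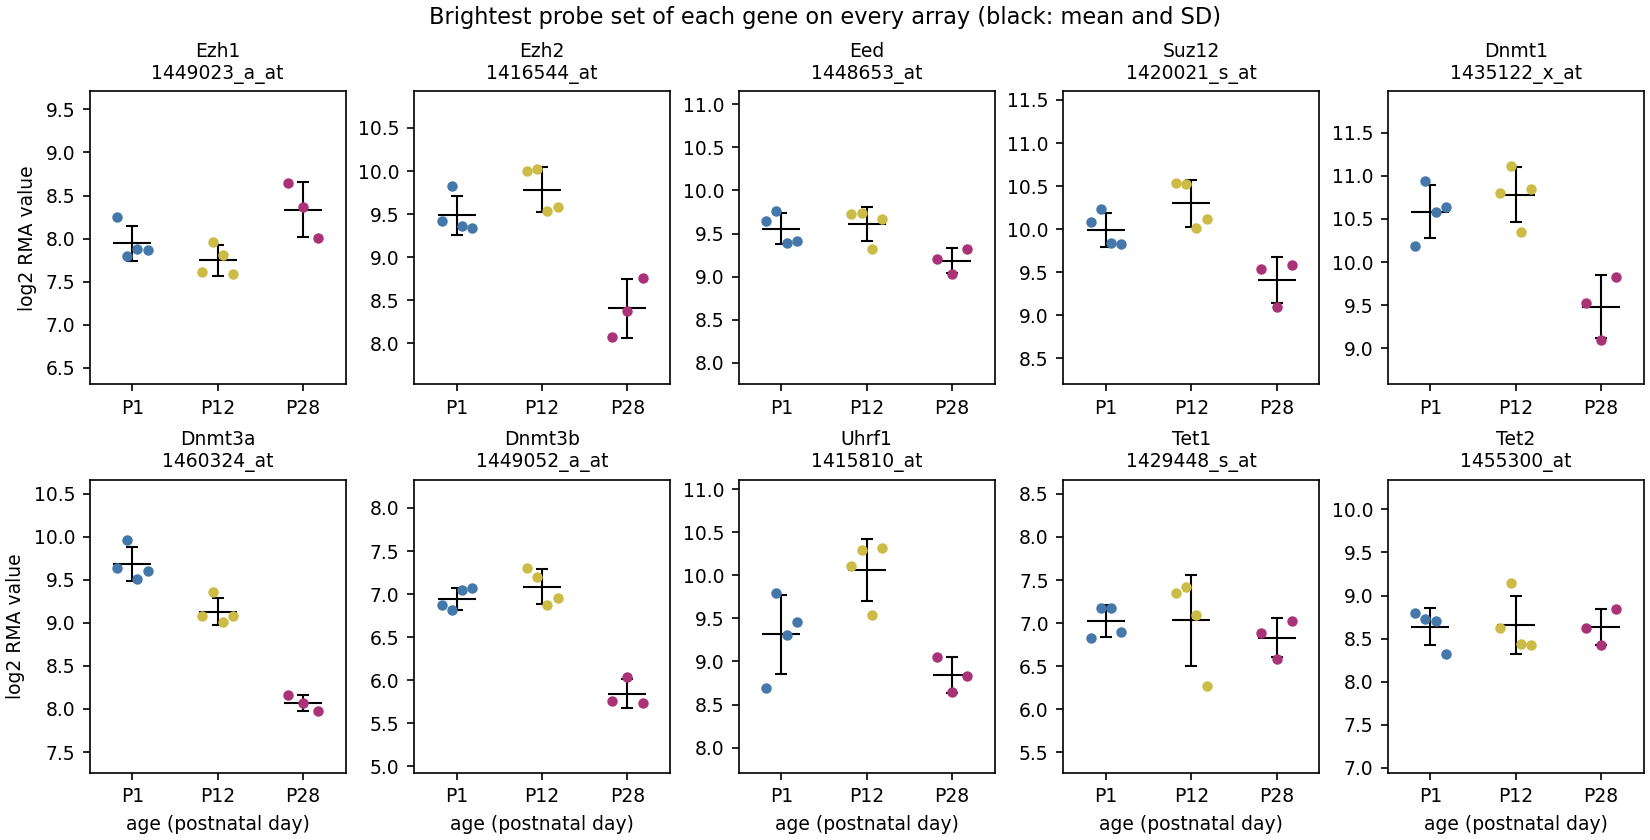
Log2 RMA value (vertical axis) of the brightest probe set of each of the 10 genes on each array, by age (horizontal axis), with the mean and SD of an age in black. The P28 arrays of Ezh2, Suz12, Dnmt1, Dnmt3a, Dnmt3b and Uhrf1 lie below all P12 arrays, those of Ezh1 lie above them, and those of Tet1 and Tet2 overlap them.

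Ezh2, the catalytic subunit of dividing cells, fell 2.60-fold between P12 and P28. Its single probe set (1416544_at) read 9.42, 9.82, 9.36 and 9.34 on the P1 arrays, 10.01, 10.02, 9.53 and 9.58 at P12, and 8.07, 8.38 and 8.76 at P28. All P28 arrays lay below every earlier array, while P1 and P12 overlapped. Ezh2 fell by 1.38 (SE 0.19, 95% interval -1.78 to -0.98, adjusted p = 0.000111) from P12 and by 1.08 (SE 0.19, adjusted p = 0.000529) from P1. The difference of 0.30 between P12 and P1 did not pass (adjusted p = 0.4).

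Ezh1, the paralog that persists in resting cells, was higher at P28 than at P12 in its 2 brightest probe sets. Probe set 1449023_a_at read 8.25, 7.79, 7.88 and 7.87 at P1, 7.61, 7.96, 7.81 and 7.59 at P12, and 8.64, 8.36 and 8.0 at P28. The P28 arrays lay above all P12 arrays, and the lowest of them lay below 1 P1 array. It rose by 0.59 from P12 (SE 0.17, adjusted p = 0.0162), a 1.51-fold change, and differed by 0.39 from P1 (adjusted p = 0.0857). Probe set 1418290_a_at read 6.36, 6.16, 6.20 and 6.35 at P1, 6.68, 6.07, 6.47 and 7.09 at P12, and 6.94, 7.39 and 7.13 at P28. Its P28 arrays exceeded every P1 array but not the highest P12 array, and it rose by 0.58 from P12 (SE 0.20, adjusted p = 0.0393) and by 0.89 from P1 (SE 0.20, adjusted p = 0.00302).

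The other Ezh1 probe sets did not follow. Probe set 1429630_at read 4.87, 5.31, 5.15 and 4.83 at P1, 4.84, 5.48, 4.74 and 5.26 at P12, and 4.92, 5.57 and 4.92 at P28, with the ages overlapping and a P28 minus P12 difference of 0.06 (adjusted p = 0.874). The dimmest, 1429629_at, read 4.15, 4.10, 4.39 and 3.98 at P1, 4.41, 4.65, 4.71 and 4.42 at P12, and 4.06, 4.15 and 4.25 at P28, little above the background controls. P12 was its highest age, and it fell by 0.39 at P28 (SE 0.13, adjusted p = 0.038).

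The Ezh1 calls against P12 depended on single arrays. The rise of 1418290_a_at from P1 kept its call whichever array was left out. It lost that call with the Gapdh 3' to 5' difference as a covariate (0.60, limma adjusted p = 0.0861). Without P28 replicate 1, the change of 1449023_a_at from P12 was 0.44 (adjusted p = 0.0899), and on values scaled to the 4 myogenic factors it was 0.58 (adjusted p = 0.0554). Without P28 replicate 3 or P1 replicate 1 its change from P1 passed, at 0.56 and 0.49. For 1418290_a_at the call against P12 was lost without P1 replicate 4, P12 replicate 1, 2 or 3, or P28 replicate 2 or 3, with changes of 0.41 to 0.61, and the Gapdh 3' to 5' difference as a covariate took it to 0.31 (adjusted p = 0.399). The fall of 1429629_at was lost without P12 replicate 2 or 3 or any 1 of the P28 arrays, at changes of -0.44 to -0.34.

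The Ezh2 value minus the Ezh1 value on the same array was taken only for its change with age, since probe sets have no common scale. At P28 it was -0.57 to 0.76, below all other arrays, and it was 1.18 to 2.03 at P1 and 1.72 to 2.39 at P12. It had a mean shift of -1.97 from P12 and -1.47 from P1, and the earlier ages overlapped. These are descriptions of 2 probe sets already tested above.

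Eed, which reads the histone mark, fell 1.34-fold between P12 and P28 in its brighter probe set. Its brightest probe set (1448653_at) read 9.65, 9.76, 9.39 and 9.41 at P1, 9.73, 9.73, 9.32 and 9.67 at P12, and 9.20, 9.04 and 9.32 at P28. P28 lay lowest, with its highest array close to P12 replicate 3, and fell by 0.43 from P12 (SE 0.14, adjusted p = 0.0377). The difference from P1 was -0.37 (adjusted p = 0.0608). Leaving out P12 replicate 1, 2 or 4 or P28 replicate 1 or 2 ended the call against P12, at changes of -0.43 to -0.35, and without P12 replicate 3 the difference from P1 passed (-0.37, adjusted p = 0.0433). With the 3' to 5' covariate the P12 to P28 change was -0.19 (adjusted p = 0.441). The second Eed probe set (1453830_at) stayed near background on all arrays, at 4.01, 4.19, 3.93 and 4.01 at P1, 4.25, 3.96, 3.83 and 4.23 at P12, and 3.95, 4.27 and 4.07 at P28.

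Suz12, the scaffold of the complex, fell in 3 of its 6 probe sets. The brightest, 1420021_s_at, read 10.08, 10.23, 9.83 and 9.83 at P1, 10.53, 10.53, 10.01 and 10.12 at P12, and 9.54, 9.10 and 9.59 at P28. P28 lay below all other arrays, and it fell by 0.89 from P12 (SE 0.17, adjusted p = 0.0017) and by 0.59 from P1 (SE 0.17, adjusted p = 0.0179). Probe sets 1420022_s_at and 1449661_at fell by 0.95 (adjusted p = 0.000792) and by 0.82 (adjusted p = 0.00192) from P12, and the former also fell by 0.56 from P1 (adjusted p = 0.0184). Without P1 replicate 2 or P28 replicate 2, the P1 to P28 change of 1420021_s_at was -0.51 and -0.43 and did not pass. That of 1420022_s_at was -0.46 without P1 replicate 3 and -0.40 without P28 replicate 2, and neither passed. With the 3' to 5' covariate, the 2 values were -0.20 and -0.45.

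The remaining 3 Suz12 probe sets did not pass in any comparison. Probe set 1427253_s_at read 8.41, 8.27, 8.13 and 8.36 at P1, 8.42, 8.67, 8.36 and 8.78 at P12, and 8.28, 8.34 and 8.34 at P28, with every P28 array just under the lowest P12 array. Probe set 1452364_at read 7.13, 6.73, 6.56 and 6.78 at P1, 6.97, 7.27, 7.07 and 7.39 at P12, and 7.0, 6.88 and 7.36 at P28, with overlap throughout. Probe set 1420020_at read 6.33, 5.99, 6.11 and 6.41 at P1, 5.98, 6.06, 6.02 and 6.27 at P12, and 5.77, 5.85 and 6.0 at P28. Their P12 to P28 differences were -0.24, -0.10 and -0.21. Without P1 replicate 2, the P1 to P28 change of 1420020_at was -0.41 and passed (adjusted p = 0.0367). The deposited values do not say which part of the transcript each probe set covers, and its bearing on the disagreement was not tested.

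From P1 to P12 no Suz12 probe set passed in the fit of group means alone. The nearest was 1449661_at, at 6.64, 6.81, 7.06 and 7.33 at P1 and 7.38, 7.42, 7.43 and 7.64 at P12, a difference of 0.50 (adjusted p = 0.0763) with no overlap. At P28 it read 6.65, 6.44 and 6.85, which overlaps P1. With the replicate number as a block, the P1 to P12 difference passed (adjusted p = 0.0375), as it did without P1 replicate 4 (0.63, adjusted p = 0.0417). It also passed with replicates 1 and 2 against 3 and 4 as a block (limma adjusted p = 0.0247). With the 3' to 5' covariate the difference was 0.49 and passed (limma adjusted p = 0.0431). It was 0.67 within replicates 1 and 2 and 0.33 within replicates 3 and 4, and neither passed alone.

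Dnmt1, the maintenance methyltransferase, fell in all 3 of its probe sets between P12 and P28. The brightest, 1435122_x_at, read 10.18, 10.94, 10.58 and 10.64 at P1, 10.80, 11.12, 10.35 and 10.84 at P12, and 9.52, 9.10 and 9.83 at P28. P1 and P12 overlapped and P28 lay below both, with a fall of 1.30 from P12 (SE 0.22, adjusted p = 0.000525), or 2.46-fold, and of 1.10 from P1 (SE 0.22, adjusted p = 0.00129). Probe set 1447877_x_at fell by 1.38 and 1422946_a_at by 0.86 from P12 (adjusted p = 0.000578 and 0.00142). From P1 they fell by 1.23 and by 0.56 (adjusted p = 0.001 and 0.0175). The last of these calls was lost without P1 replicate 2 (-0.46, adjusted p = 0.0526) or P28 replicate 2 (-0.52, adjusted p = 0.0579), and with the 3' to 5' covariate (-0.56, adjusted p = 0.0867). The names ending in _x_at mark probes that may also bind other transcripts, and 1422946_a_at is not of that kind.

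Uhrf1, which brings Dnmt1 to hemimethylated DNA, had its highest mean at P12. Probe set 1415810_at read 8.70, 9.79, 9.31 and 9.46 at P1, 10.10, 10.29, 9.54 and 10.32 at P12, and 9.06, 8.65 and 8.83 at P28. P28 lay below all P12 arrays and overlapped P1. It fell by 1.22 from P12 (SE 0.24, adjusted p = 0.00169), or 2.33-fold, and differed by -0.47 from P1 (adjusted p = 0.144). The P12 minus P1 difference of 0.75 (SE 0.22) missed the threshold (adjusted p = 0.0725). It was 0.95 within replicates 1 and 2 and 0.54 within replicates 3 and 4, and it passed without P1 replicate 2 (0.91, adjusted p = 0.0425) or P12 replicate 3 (0.92, adjusted p = 0.0287). Without P1 replicate 1 the change from P1 to P28 passed (-0.68, adjusted p = 0.0224).

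The second Uhrf1 probe set, 1415811_at, did not show the fall. It read 6.07, 6.97, 6.77 and 6.88 at P1, 7.54, 6.49, 7.25 and 8.10 at P12, and 7.12, 7.28 and 7.40 at P28. The P28 arrays lay within the P12 range and above all P1 arrays, and no comparison passed (P28 minus P12 -0.08, 95% interval -0.73 to 0.56). The P1 to P12 difference was 0.67 (adjusted p = 0.203), and without P12 replicate 2 it was 0.96 and passed (adjusted p = 0.0333).

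Dnmt3a, a de novo methyltransferase, was the 1 gene of the 10 called in both steps. Probe set 1460324_at read 9.64, 9.96, 9.51 and 9.60 at P1, 9.08, 9.36, 9.0 and 9.08 at P12, and 8.16, 8.07 and 7.98 at P28. The 3 ages did not overlap, and the order was P1 above P12 above P28. It fell by 0.55 from P1 to P12 (SE 0.13, adjusted p = 0.0251) and by 1.06 from P12 to P28 (SE 0.14, adjusted p = 7.18e-05), a total of 1.61 (SE 0.14, adjusted p = 1.22e-06), or 3.05-fold. The 2 steps share the P12 arrays. The first step was -0.58 within replicates 1 and 2 and -0.51 within replicates 3 and 4, and it lost its call in each. Leaving out 1 of P1 replicates 2 and 4 or 1 of P12 replicates 1, 3 and 4 also ended it, with changes of -0.57 to -0.45.

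The other Dnmt3a probe sets did not pass from P1 to P12, with differences of -0.19, -0.35, -0.36 and 0.11 for 1423065_at, 1423066_at, 1423063_at and 1423064_at. Probe set 1423065_at read 8.91, 9.48, 9.03 and 9.12 at P1, 9.25, 8.95, 8.64 and 8.95 at P12, and 8.28, 8.04 and 8.23 at P28. Probe set 1423063_at read 8.64, 8.89, 8.78 and 8.58, then 8.49, 8.10, 8.47 and 8.39, then 7.83, 7.49 and 7.44. Probe set 1423064_at read 8.22, 8.27, 8.44 and 8.38, then 8.54, 8.48, 8.44 and 8.28, then 7.45, 7.70 and 7.64. In each of these 3, P28 lay below all other arrays, with falls from P12 of 0.77, 0.77 and 0.84 (adjusted p = 0.0031, 0.00111 and 0.000161). With the 3' to 5' covariate, 1423065_at lost its call (-0.56, adjusted p = 0.0648). Probe set 1423066_at read 8.63, 8.49, 8.66 and 8.94 at P1, 7.62, 8.32, 8.52 and 8.88 at P12, and 8.26, 8.14 and 8.71 at P28. Its ages overlapped, and its P28 minus P12 difference was 0.04 (95% interval -0.48 to 0.55). That interval does not reach the estimated falls of the other 4. It overlaps the 95% intervals of 1423065_at (-1.12 to -0.41) and 1423063_at (-1.08 to -0.47), but not those of 1423064_at and 1460324_at.

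Dnmt3b, the other de novo enzyme, fell 2.36-fold at P28 in its brighter probe set. Probe set 1449052_a_at read 6.87, 6.81, 7.04 and 7.07 at P1, 7.31, 7.20, 6.88 and 6.96 at P12, and 5.76, 6.03 and 5.74 at P28. P28 lay apart from both earlier ages, which overlapped, and fell by 1.24 from P12 (SE 0.14, adjusted p = 2.36e-05) and by 1.10 from P1 (SE 0.14, adjusted p = 4.1e-05). Probe set 1418351_a_at read 5.71, 5.95, 5.73 and 5.33 at P1, 5.96, 5.92, 5.68 and 6.09 at P12, and 5.39, 5.42 and 5.77 at P28. It overlapped between ages, with a P12 to P28 difference of -0.39 (adjusted p = 0.0835) that passed without P28 replicate 3 (-0.51, adjusted p = 0.0472).

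Tet1 and Tet2, the dioxygenases that begin DNA demethylation, gave 0 calls by limma in the 3 comparisons, and 1 probe set of Tet1 in each passed an unadjusted p under 0.05. Alternatives that gave Tet1 a call are named beside its probe sets. Tet2 probe set 1455300_at read 8.80, 8.72, 8.71 and 8.32 at P1, 8.62, 9.14, 8.43 and 8.43 at P12, and 8.63, 8.43 and 8.84 at P28. The ages overlapped, and the P28 minus P12 difference was -0.02 with a 95% interval of -0.42 to 0.37, so smaller changes in either direction remain possible. The other Tet2 probe set (1438781_at) had means of 7.41, 7.74 and 7.42. Tet1 probe set 1429448_s_at read 6.83, 7.18, 7.18 and 6.90 at P1, 7.35, 7.41, 7.10 and 6.27 at P12, and 6.89, 6.59 and 7.03 at P28. One P12 array, replicate 4, read below all P28 arrays, and without it the P12 to P28 change passed (-0.45, adjusted p = 0.0473); with all arrays it was -0.20 (95% interval -0.70 to 0.30). The means of 1455425_at, 1419896_at and 1419897_at were 6.24, 5.54 and 4.38 at P1, 6.50, 5.62 and 4.70 at P12, and 6.17, 5.75 and 4.68 at P28. For 1455425_at the P12 to P28 change was -0.33 (adjusted p = 0.112), and with the replicate number as a block it was -0.38 and passed (adjusted p = 0.0334). For 1419897_at all P28 arrays lay above all P1 arrays, with a difference of 0.30 (adjusted p = 0.0909) that was 0.41 and passed after quantile normalization (adjusted p = 0.0185).

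**Figure D2:**
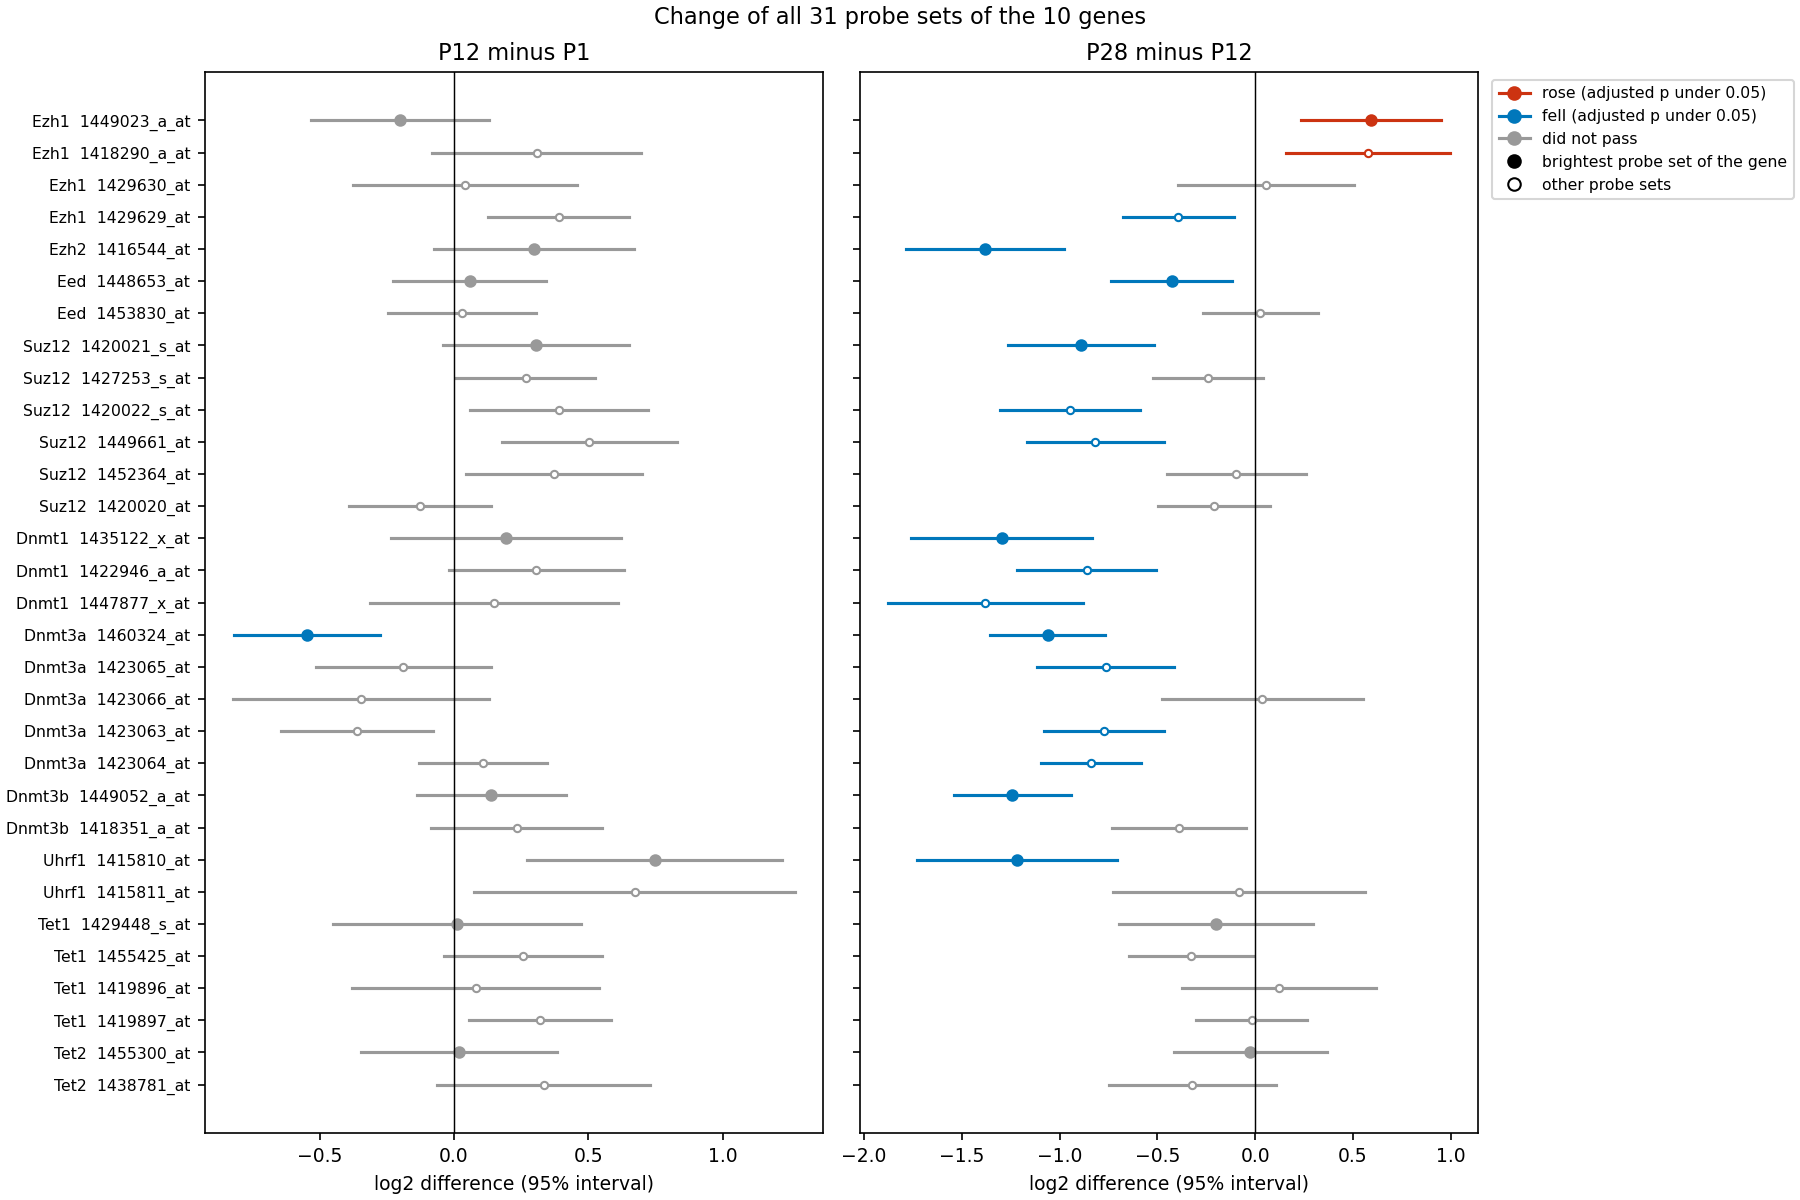
Log2 difference (horizontal axis) with its 95% interval for each of the 31 probe sets (rows), P12 minus P1 on the left and P28 minus P12 on the right; filled points are the brightest probe set of a gene and colours mark calls at an adjusted p under 0.05. On the right, 15 probe sets lie in the called lower group and 2 of Ezh1 in the called higher group, and Ezh1, Eed, Suz12, Dnmt3a, Dnmt3b and Uhrf1 have probe sets both with and without a call.

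The genes around the core were counted from lists, each gene by its brightest probe set. Of 10 PRC2 accessory subunits measured, 5 fell and 1 rose from P12 to P28, where 15.9% of all probe sets were lower and 13.5% higher. The same shares are the background for the lists that follow in this step. Lcor, whose locus also encodes a PRC2-binding protein, fell by 1.36, Rbbp7, a histone chaperone, by 0.78, and Phf19, a Tudor protein that helps PRC2 reach chromatin, by 0.77. Phf1, a related Tudor protein, rose by 0.41 (adjusted p = 0.0301). Jarid2, which recruits PRC2, rose by 0.50 from P1 to P12 (adjusted p = 0.0268), the 1 accessory gene called in that step, and differed by 0.06 between P12 and P28. The median change of the list was -0.33 from P12 to P28.

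PRC1, the complex that ubiquitinates histone H2A and binds the PRC2 mark, showed 10 falls and 2 rises among 24 measured subunits between P12 and P28 (15.9% lower and 13.5% higher over all probe sets), and 0 calls by limma from P1 to P12, where 3 were higher and 1 lower at an unadjusted p under 0.05. Among the falls were those of Scml2 (-1.31), Cbx2 (-1.05), Bcor (-1.04) and Pcgf2 (-0.84), in log2 units. Cbx7 and Ring1 rose by 1.10 and 0.59 (adjusted p = 0.00189 and 0.0104). Cbx2 and Cbx7 both encode chromodomain subunits that read the histone mark, and they moved in opposite directions. The median change of the list was -0.45.

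Of 8 genes for H3K27 demethylases and H2A deubiquitinase subunits, Asxl1 and Asxl2 fell by 0.91 and 0.72 and Asxl3 rose by 0.75 from P12 to P28, after a fall of Asxl3 by 1.05 from P1 to P12. The P12 mean of Asxl3 was 4.22, little above the background controls. The demethylase genes Kdm6a and Kdm6b were not called in either step, and over the whole interval from P1 to P28 Kdm6a rose by 0.66 (adjusted p = 0.00712). Among 26 partners of DNA methylation and demethylation, 10 fell and 1 rose, again beside 15.9% lower and 13.5% higher over all probe sets. The 2 falls and 1 rise among the 8 genes above are near those shares. Zfp57, which protects imprinted methylation, fell by 1.60 and Cdca7, a partner of a chromatin remodeller, by 1.30. Smug1, a base excision glycosylase, fell by 1.24 and Ogt, a sugar transferase that binds Tet proteins, by 1.12. Gadd45a, a stress and growth arrest gene, rose by 1.29 from P1 to P12 (adjusted p = 3.55e-05) and by 1.13 from P12 to P28 (adjusted p = 1.52e-05). Rbbp7, Scml2, Bcor, Ogt and Kdm6a lie on the X chromosome, and the bearing of the Xist difference among P1 arrays on them was not tested.

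The cell cycle list moved in the same step. Of 39 measured genes, 34 fell and 0 rose from P12 to P28 by limma (36 lower and 0 higher at an unadjusted p under 0.05), with a median of -1.07. From P1 to P12, 12 rose and 1 fell, with a median of 0.58, where 3.25% of all probe sets were higher and 1.59% lower. The falls at P28 of Ccne1 (-2.13), Cdc20 (-1.77), Top2a (-1.76) and Ccna2 (-1.66) were the largest of the list, and the largest rises at P12 were those of Ccnd1 (1.65), Birc5 (1.49) and Plk1 (1.34). The brightest probe sets of 8 of the 10 genes had their means in the same order as the list's, P12 above P1 above P28, and none of the 8 was called from P1 to P12. Tet1 and Tet2, which had no call between ages, were among the 8 by small differences. These were 0.01 and 0.02 from P1 to P12, and -0.19 and -0.01 from P1 to P28. Any link between the order and the cell cycle list was not tested. Dnmt3a and Ezh1 had other orders.

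**Figure D3:**
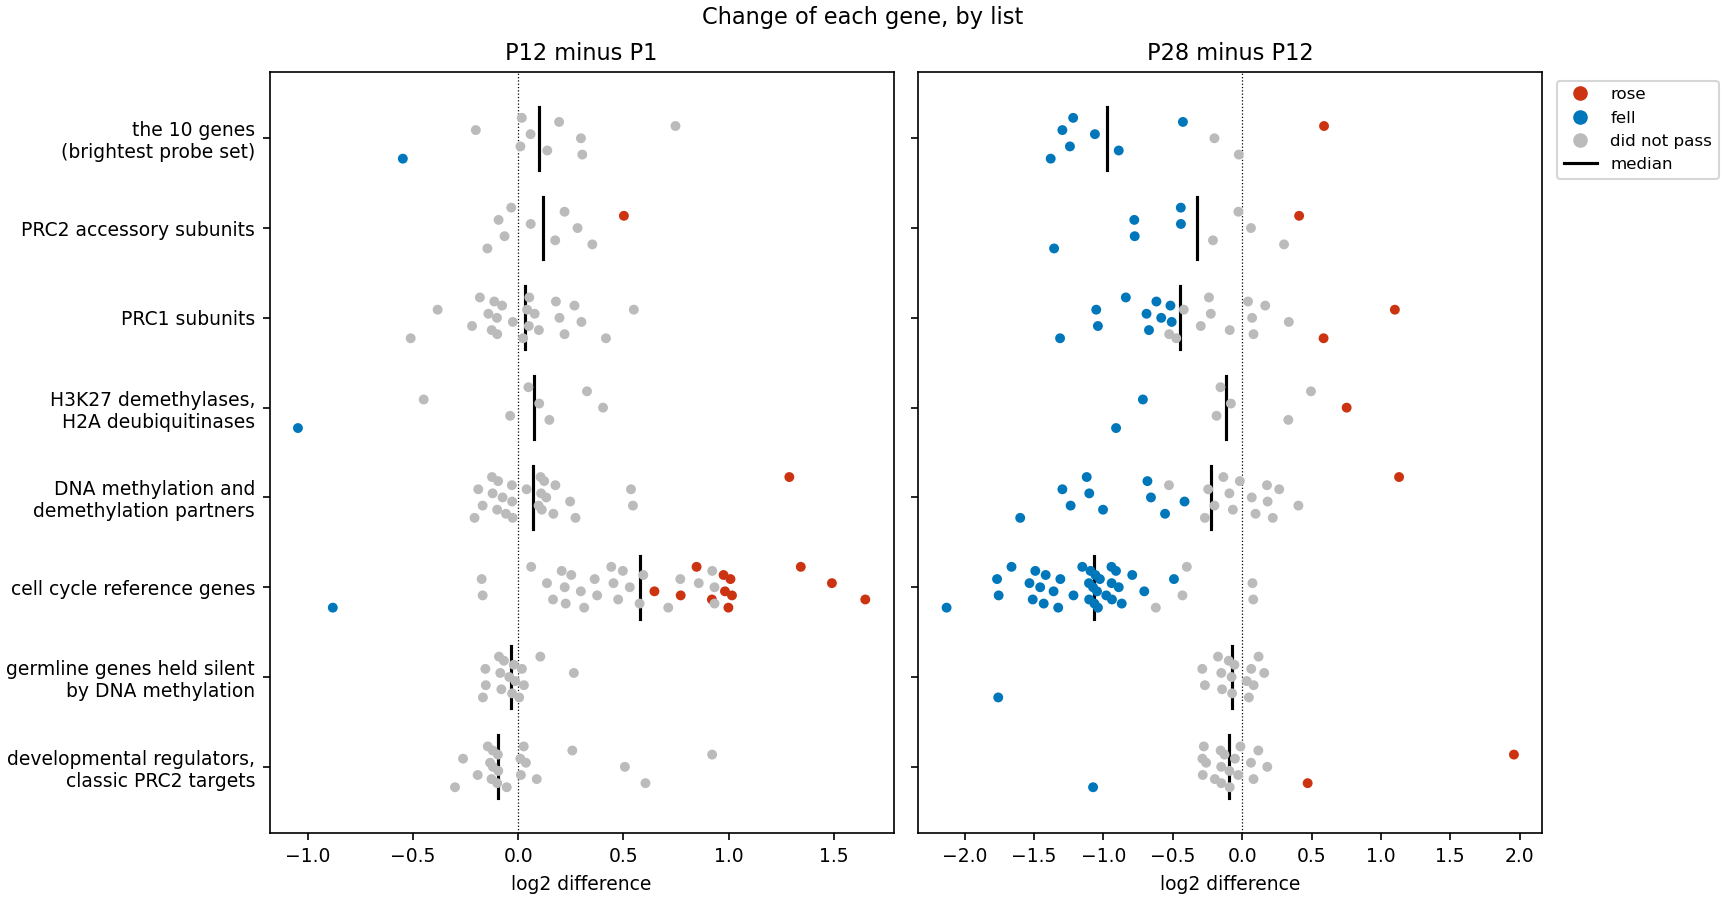
Log2 difference of each gene (points) by list (rows), P12 minus P1 on the left and P28 minus P12 on the right, with the list median as a black bar and colours for calls. From P12 to P28 the cell cycle list has 34 of 39 genes called lower, and the germline and PRC2 target lists centre near 0.

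Markers of other cell types rose at P28 together with these changes. All 7 measured neutrophil genes rose, and their mean level per array ran from 5.54 to 6.28 at P12, against 9.34 to 10.59 at P28. At P28, 11 of 12 muscle fibre genes, 9 of 10 endothelial, 5 of 7 erythroid, 6 of 12 macrophage, 6 of 9 fibroblast, 7 of 9 pericyte and 5 of 8 mast cell genes rose from P12. The mean level of the fibre list was 8.60 to 9.67 on P12 arrays and 11.04 to 11.56 on P28 arrays. Endothelial genes read 5.97 to 6.66 against 7.64 to 8.36, and erythroid genes 5.74 to 5.97 against 6.95 to 7.99. Macrophage genes read 5.94 to 6.29 against 6.90 to 7.87, fibroblast genes 8.90 to 9.15 against 10.17 to 11.08, pericyte genes 7.55 to 7.98 against 8.76 to 8.92, and mast cell genes 4.51 to 4.75 against 5.03 to 5.39. In each of these 8 lists all P28 arrays lay above all P12 arrays, and the P1 arrays overlapped P28 for mast cell genes (5.09 to 5.42 at P1). One fibre gene fell. Among these rises, the mast cell marker Fcer1a, at 3.77, the macrophage marker Itgam, at 4.14, and the erythroid marker Rhag, at 4.16, had P28 means little above the background controls. So had the mast cell marker Kit, at 4.21, which was not called. These 4 were singled out after their values were seen. Of 9 Schwann cell and melanocyte genes, 1 rose and 1 fell. Of 10 satellite and myogenic genes, Calcr and Des rose, by 0.59 and 1.60, and the other 8 were not called. The part of other cells in the changes of the chromatin genes was not tested. On values scaled to the 4 myogenic factors, chosen after these rises were seen, 13 of the 15 falls against P12 and neither Ezh1 rise kept their call, and all 12 calls against P1 did. From P12 to P28 this scaling hardly moved the changes. Ezh2 changed by -1.39 and Ezh1 1449023_a_at by 0.58, against -1.38 and 0.59 without it. Calls kept or lost in that step therefore do not measure the part of other cells. With the Gapdh 3' to 5' difference as a covariate, 13 of the 17 calls against P12 and 8 of the 12 against P1 were kept. That difference was at most 0.99 on the P28 arrays and at least 1.32 on all earlier ones. The covariate fit therefore cannot tell it apart from age.

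**Figure D4:**
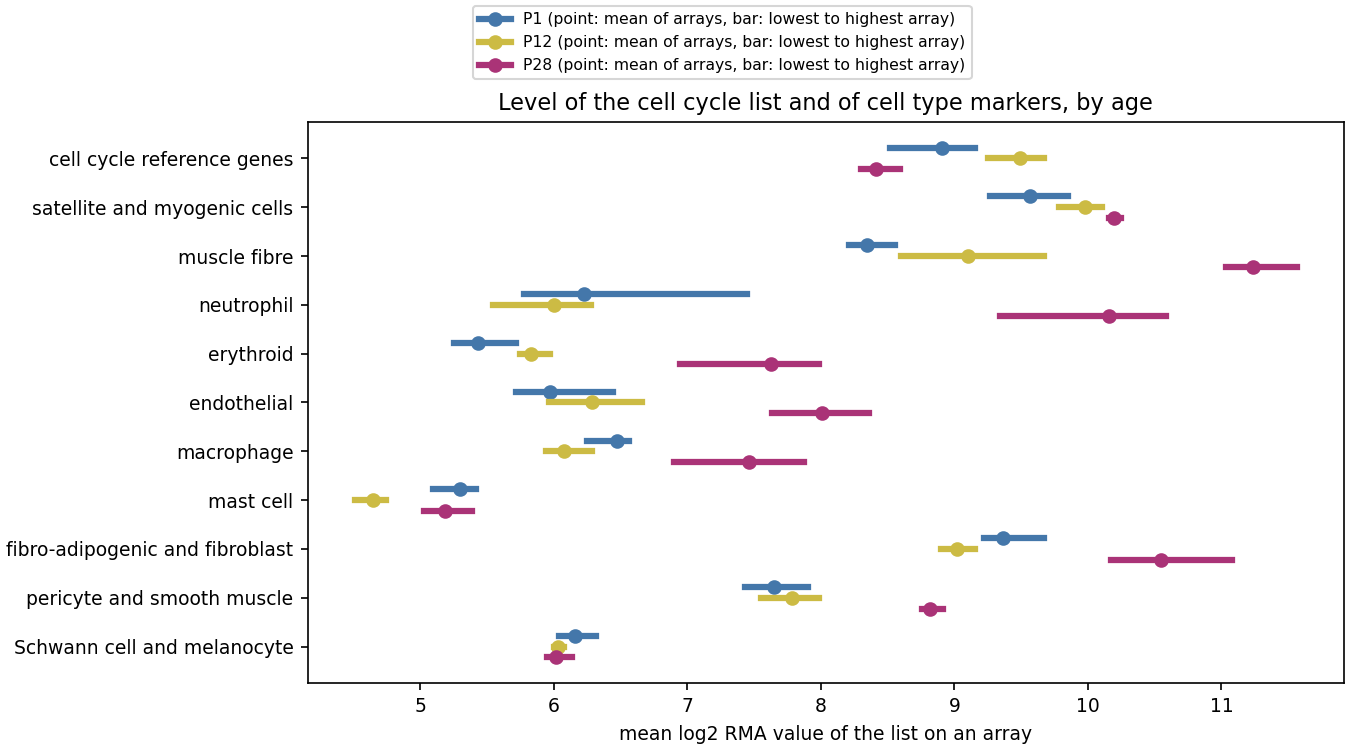
Mean log2 RMA value of each list on an array (horizontal axis) for the cell cycle list and 10 cell type lists (rows), with the mean of the arrays as a point and the lowest to highest array as a bar. The P28 arrays have the lowest mean for cell cycle genes and lie above all other arrays for neutrophil, erythroid, endothelial and fibre genes.

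The profiles most like 4 of the genes were ranked by the root mean square difference between centred log2 profiles over the 11 arrays, as a description. Nearest to Ezh2 were Usp1 (0.14), Cep43, Cstf2, Ccng2 and Pbx3 (0.16), set against an SD of 0.64 for Ezh2 over the arrays. For Uhrf1 (SD 0.62) they were Mxd3 (0.17), Dscc1, Rrm2, Cenpk and Cdc6 (0.20), and Rrm2 and Cdc6 are also in the cell cycle list. For Ezh1 (SD 0.32) they were Gpr27 (0.13), Best1, Nipal3, Sptb and Ppfibp1 (0.14). For Tet1 (SD 0.33) the nearest, H1f8, was at 0.15 and the fifth, Itfg2, at 0.19, where Tet1 itself had no call between ages.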

How the data were processed

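Biotin-labelled cDNA of 11 samples was hybridised to Affymetrix Mouse430_2 arrays. The authors deposited 1 log2 expression value per probe set and array. Per the submitters' processing notes, Affymetrix Expression Console, RMA and affy were used, with no versions, roles or order given, so whether all arrays were normalized together is not given in the sources used here. RMA subtracts background, quantile-normalizes and summarises probes on the log2 scale, which compresses changes of dim probe sets. Array minima ran from -0.78 to 0.48 at P1 and P12, against 1.65 to 2.09 at P28.

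The values were used as deposited. Of 45101 probe sets, 34958 had 1 gene symbol, 932 several and 9211 none in the platform annotation, and 64 control probe sets were left out of the tests. The Entrez identifiers of 34754 of those with 1 symbol were found in RefSeq, and 0 symbols changed. Group means were fitted to all 11 arrays with limma 3.58.1 (R 4.3.3; lmFit, contrasts, eBayes, 8 residual and 5.82 prior degrees of freedom), with two-sided moderated tests adjusted by Benjamini-Hochberg over 45037 probe sets. The fit was also run on simulated data with independent noise on each array. That run does not cover arrays that deviate together. Arrays give no read depth, and their number limits the precision.

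All probe sets of the 10 genes are accounted for. Other genes are counted from 17 lists, 7 of pathways and 10 of cell types, by their brightest probe set and named up to the 4 largest passing changes per direction, list and comparison. The genes, lists and tests were chosen with earlier results of these data known. Same-numbered P1 and P12 arrays deviated together from their group means (correlations of 0.14, 0.21, 0.31 and 0.18). Arrays of different number were not correlated, so these values cannot show that the numbers pair the arrays. The Gapdh control probe sets also split the replicates of P1 and P12 into sets, and the part of that split in the correlations was not tested. No label states a pairing. The main fit used none, and the fit with a replicate block is an alternative. Same-numbered correlations with P28 arrays were -0.12 to 0.09, and the P28 arrays were not taken as paired. Promoter windows are those of RefSeq on GRCm38.p6. Of 253 list genes, 16 had no probe set of their symbol alone.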

Additional observations from a re-analysis of the deposited data

Results flagged for a closer look

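One array stood apart from the others of its age. For Eed (1448653_at), P12 replicate 3 read 9.32 and the other P12 arrays 9.67 to 9.73. This was 1 of 62 sets of 4 arrays examined, and chance alone flags about 1 in 20 such sets. Without this array, the P1 to P28 change of Eed passed the threshold, as given above.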

How the results depend on the processing

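No probe set of the 10 genes reversed a called direction under any alternative. Of the single changes, 1976 kept their side of the threshold, 48 lost a call and 28 gained one. Leaving out 1 array at a time gave 1029 to 2213 calls among all probe sets from P1 to P12, 10272 to 13445 from P12 to P28 and 13131 to 15901 from P1 to P28. The omissions that moved the first of these counts by over 1.5 times were those of P1 replicates 3 (1071) and 4 (1029) and P12 replicates 1 (1105) and 4 (1100). Among the probe sets of the 10 genes it gave 0 to 1, 13 to 15 and 8 to 12 falls, 0 to 1, 1 to 2 and 1 to 2 rises, and 14 to 17 calls of the F test. Rises from P12 to P28 numbered 1 with quantile normalization, 1 probe set per gene, the 3' to 5' covariate or only the 2 ages compared, and 0 with the myogenic scaling. Rises from P1 to P28 numbered 2 with quantile normalization, array weights or only the 2 ages compared, and 0 with 1 probe set per gene or the covariate. From P1 to P12, 1 probe set rose without dim probe sets, with trend and robust moderation, the replicate block, the covariate or the array set block (replicates 1 and 2 against 3 and 4), and 0 fell within either array set. With 1 probe set per gene, 7 fell from P12 and 5 from P1, the F test called 7, and 1195, 5716 and 6656 genes were called in all. Without _x_at and _s_at probe sets, 7 fell from P1 to P28. All calls from P1 to P12 numbered 2181, and 3426 with the covariate, 4065 with the array set block, 230 within array set 1 and 956 with the myogenic scaling. From P12 to P28 there were 13229, and 8697 with the covariate and 8392 with the myogenic scaling. That scaling, added after seeing the data, gave a median change of all probe sets of -0.18 from P1 to P12 and -0.24 from P1 to P28, against 0.01 and -0.05 without it. From P12 to P28 the median was -0.06 with it and -0.05 without it. With the replicate block, Tet1 1455425_at was called from P12 to P28 (-0.38, adjusted p = 0.0334), and besides Suz12 1449661_at no other probe set of the 10 genes changed its call. Fewer probe sets or arrays enter the per-gene and within-set counts; the cause of the other shifts was not tested.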

Other observations

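Of 16 measured germline genes that promoter DNA methylation is known to keep silent, 0 rose from P12 to P28 by limma (0 at an unadjusted p under 0.05) and 1 fell. That gene was Tdrd1, a piRNA pathway gene, whose mean was 4.75 at P1, 4.86 at P12 and 3.10 at P28. The list's mean level was 4.06 to 4.18 at P1, 4.04 to 4.16 at P12 and 3.92 to 3.96 at P28, little above the background controls, where a low level cannot be told from none. Brdt, a testis bromodomain gene singled out after its values were seen, lay higher, at means of 6.76, 6.68 and 6.51, and was not called.

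Of 21 measured developmental regulators that are classic PRC2 targets, 2 rose and 1 fell from P12 to P28, where 13.5% of all probe sets were higher and 15.9% lower. Sox17, an endoderm and endothelial transcription factor, rose by 1.96 (means of 5.30, 6.22 and 8.18 at P1, P12 and P28), beside the rise of 9 of 10 endothelial markers. Gata6 rose by 0.47 (adjusted p = 0.0458), and Cdkn2b, a cell cycle inhibitor, fell by 1.07 (adjusted p = 0.00112). Cdkn2a, its neighbour and a known Polycomb target, read 4.54, 4.57 and 4.42 and was not called; it was singled out after its values were seen. The part of endothelial cells in the Sox17 change was not tested.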
